A study of Bos taurus with 27 samples.

Results

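The comparison described here sets 3 arrays of Bonsmara lymph nodes sampled while adult cattle ticks fed against 3 arrays of Bonsmara nodes sampled before any tick attachment, 6 of the 27 arrays of the study. The 6 arrays were taken by their titles, with no reference to their values. The description of adult replicate 2 also names larvae, while its title, source and sample type name adult ticks, and it was kept as an adult array. Without it, 1 of the 9 features past the threshold below was left, and the same number was left without adult replicate 1. The tissue was a biopsy of the superficial cervical lymph node, which receives lymph from neck and shoulder skin, and the tick was Rhipicephalus microplus. Bonsmara is a composite breed developed in South Africa, and the same stages were sampled in Brahman, a zebu breed, and Holstein-Friesian, a taurine dairy breed, with 3 arrays for each breed and stage, a larval stage included. All 6 arrays share 1 reference, a pool of cattle superficial cervical lymph node RNA in the Cy3 channel, against which the Cy5-labelled cDNA of each sample was hybridised. Every value below is therefore a log2 ratio to that pool, and a difference of 1 between groups is a doubling if, as is likely but not written with the values, the base is 2 and the direction is sample over pool. The labels call the replicates biological, give no age, and leave unsaid whether 1 animal gave more than 1 stage. No array came from an uninfested animal at the later time, so tick feeding cannot be told apart from time or age.

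A cattle tick stays on 1 animal from larva to adult, and each stage feeds through the skin with saliva that carries many proteins. Antigen and cells from the bitten skin reach the draining node through the lymph. There T cells, natural killer cells and B cells meet dendritic cells and macrophages on a scaffold of reticular stroma, collagen and vessels. Interferon-gamma made by activated T cells and natural killer cells induces the chemokines CXCL9, CXCL10 and CXCL11, which attract cells that carry the receptor CXCR3, and the tryptophan-degrading enzyme IDO1.

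The 28927 features tested were 14495 genes, each the mean of its probes, and 14432 probes with no gene symbol. The 6 arrays correlated with the other arrays of their own group at a mean of 0.31 to 0.396 over these features, and the other arrays with their own groups at -0.085 to 0.357, and the number of arrays limits the precision. The baseline arrays spread more widely around the pool (SD of all log2 ratios 0.349, 0.377 and 0.376) than the adult arrays (0.269, 0.266 and 0.318). Over all features the median difference was -0.0185, the median absolute difference 0.139 and the median SE 0.162. With values relative to a node pool, the labelled tissue can be checked only for shifts against that pool: the 5 T cell markers had means of 0.161 to 0.375 on the baseline arrays and -0.0205 to 0.184 on the adult arrays, and muscle, skin and red cell markers had array means between -0.288 and 0.175. Nodes are mixtures, and fewer cells of a type and less RNA per cell cannot be told apart in any result below.

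Adult-stage nodes differed from baseline nodes past the threshold (limma, adjusted p under 0.05 over all features) in 9 features, 3 higher (0.0104% of those tested) and 6 lower (0.0207%). The named genes among them were the chemokine CXCL11 and the adenylate kinase AK5, which fell, and the semaphorin receptor PLXNA4 and the cell-adhesion molecule MDGA1, which rose. The other 5 were LOC515676 and LOC511531, which carry no gene name in the annotation used and are named here after their values were seen, and 3 probes without a gene. At an unadjusted p under 0.05, 1325 features were higher (4.58%) and 1905 lower (6.59%). The 3 adult arrays lay entirely above the 3 baseline arrays in 3145 features (10.9%) and entirely below them in 3353 (11.6%).

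CXCL11 stood at 2.36, 2.30 and 1.47 on the baseline arrays and at -0.44, -0.19 and 0.21 on the adult arrays. All 3 baseline nodes were far above the pool, all 3 adult nodes were near it, and the groups did not overlap. The difference was -2.19 (SE 0.36, n = 3 and 3, limma adjusted p = 0.0281). Without adult replicate 1 or adult replicate 2 the difference was -2.04 and -2.16, and the adjusted p was 0.14 and 0.156.

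AK5, an enzyme that interconverts adenine nucleotides, read 1.13, 0.60 and 0.52 at baseline and -0.10, -0.04 and 0.15 with adult ticks. The groups were apart, and baseline replicate 1 was the highest array. AK5 fell by 0.75 (SE 0.13, limma adjusted p = 0.0281), but its 2 probes differed, at -1.33 and -0.16, so the change rests on 1 probe. The adjusted p was 0.14 without adult replicate 1 and 0.18 without adult replicate 2.

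PLXNA4, a plexin that takes part in semaphorin signalling and is best known from axon guidance, read -0.38, -0.47 and -0.82 at baseline and 0.33, 0.10 and 0.18 with adult ticks. Every baseline node was below the pool and every adult node above it. The rise was 0.76 (SE 0.12, limma adjusted p = 0.0162), with an adjusted p of 0.14 without adult replicate 1 and 0.0546 without adult replicate 2.

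MDGA1, a membrane-anchored immunoglobulin-domain protein studied mainly in neurons, read -0.74, -0.93 and -0.65 at baseline and 0.16, -0.05 and 0.12 with adult ticks. The groups were well apart and each was narrow. MDGA1 rose by 0.85 (SE 0.15, limma adjusted p = 0.0419). It no longer passed without adult replicate 1, 2 or 3 (adjusted p = 0.16, 0.14 and 0.14) or without baseline replicate 2 (0.0799).

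LOC515676 stood at 1.70, 1.79 and 0.84 at baseline and at -0.30, -0.29 and -0.03 with adult ticks. The 3 baseline arrays were high, replicate 3 the least, as in CXCL11. It fell by 1.65 (limma adjusted p = 0.0148; 0.0884 and 0.0855 without adult replicate 1 and 2). LOC511531 had the same form, from 1.31, 1.39 and 0.68 to -0.15, -0.08 and 0.15, and fell by 1.16 (limma adjusted p = 0.0281; 0.14, 0.175 and 0.0592 without adult replicate 1, adult replicate 2 and baseline replicate 2). The smallest adjusted p of all, 0.00163, belonged to a probe with no gene symbol that rose by 1.27 and kept an adjusted p of at most 0.0367 with any 1 of the 6 arrays left out.

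**Figure D1:**
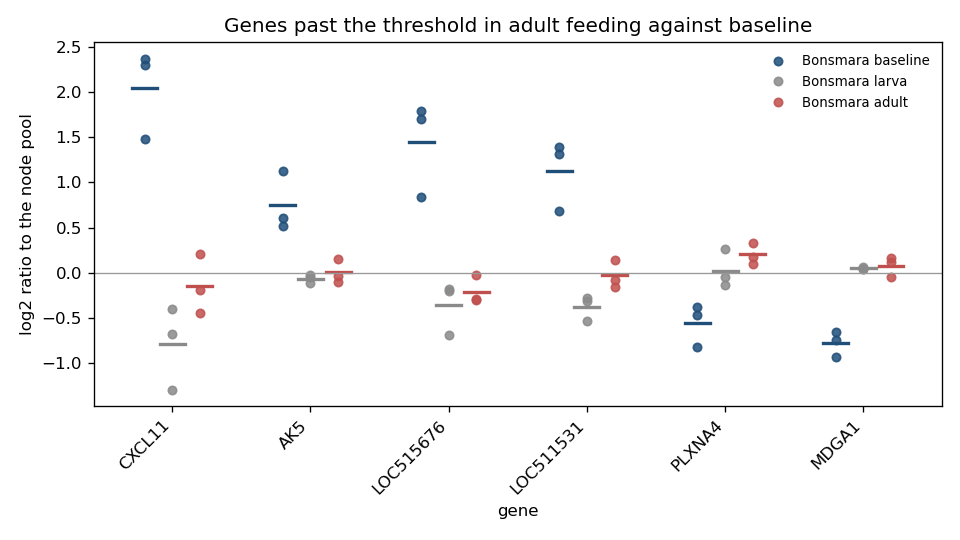
Log2 ratio to the node pool of the 6 genes past the threshold, with 1 point per array and a bar at the mean of 3 arrays, for Bonsmara baseline, larva and adult groups. CXCL11 lies at 1.47 to 2.36 at baseline and at -0.44 to 0.21 with adult ticks; the larva points are shown for level only.

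The 9 features depended on the estimate of spread and on the scale of the arrays. With the 6 arrays fitted alone, which leaves fewer residual degrees of freedom, 0 features passed (smallest limma adjusted p = 0.182, 4186 features at an unadjusted p under 0.05), and with every array scaled to the same interquartile range 0 passed (smallest 0.0508, 2214 at an unadjusted p under 0.05). The main fit had 3230 features at that level, and the fits with 1 of the 6 arrays left out had 2325 to 3261. The 4.58% and 6.59% given beside list counts are shares in the main fit. List counts from other fits are given without a matched share for each direction.

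Genes induced by interferon-gamma were lower with adult ticks as a group. All 13 measured members of the list of interferon-gamma chemokines and induced genes had a negative difference, with a median of -0.66 against -0.0185 over all features. CXCL11 passed the threshold. Of the 13, 8 were lower at an unadjusted p under 0.05 (6.59% of all features) and 0 were higher. In 8 the adult arrays lay entirely below the baseline arrays (11.6% of all features). The list was assembled with earlier results of these data known, and CXCL11 was already among them, so these counts describe it and test nothing.

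CXCL9 stood at 2.25, 2.59 and 1.18 on the baseline arrays and at 0.02, -0.36 and 0.14 on the adult arrays. As in CXCL11, all baseline nodes were far above the pool, with replicate 3 the lowest of them, and no adult node came near them. The difference of -2.07 (SE 0.47, limma adjusted p = 0.11) did not pass. Without baseline replicate 3, the lowest baseline array, it was -2.49 and passed (limma adjusted p = 0.0432). CXCL9 did not pass with any other baseline or adult array left out (limma adjusted p = 0.15 to 0.34). CXCL10, the third of these chemokines, had baseline values from 0.88 to 1.90 and adult values from -0.11 to 0.54, and a difference of -1.36 (SE 0.43, adjusted p = 0.277).

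IRF1, a transcription factor induced by interferon-gamma, read 1.03, 1.09 and 0.49 at baseline and -0.01, -0.23 and 0.09 with adult ticks. The groups did not overlap, and the difference was -0.92 (SE 0.20, limma adjusted p = 0.0926). It was -1.11 and passed without baseline replicate 3 (limma adjusted p = 0.0267). Leaving out any other baseline or adult array, IRF1 did not pass (limma adjusted p = 0.135 to 0.309). IDO1 read 1.71, 1.93 and 1.03 at baseline and 0.26, 0.27 and 0.54 with adult ticks, which were again apart (difference -1.20, adjusted p = 0.277). WARS1, the tryptophanyl-tRNA synthetase, differed by -0.82 and the guanylate-binding protein GBP5 by -0.66, the latter with overlapping arrays. The immunoproteasome subunit PSMB9 and the feedback inhibitor SOCS1 were close to level, at -0.13 and -0.15.

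**Figure D2:**
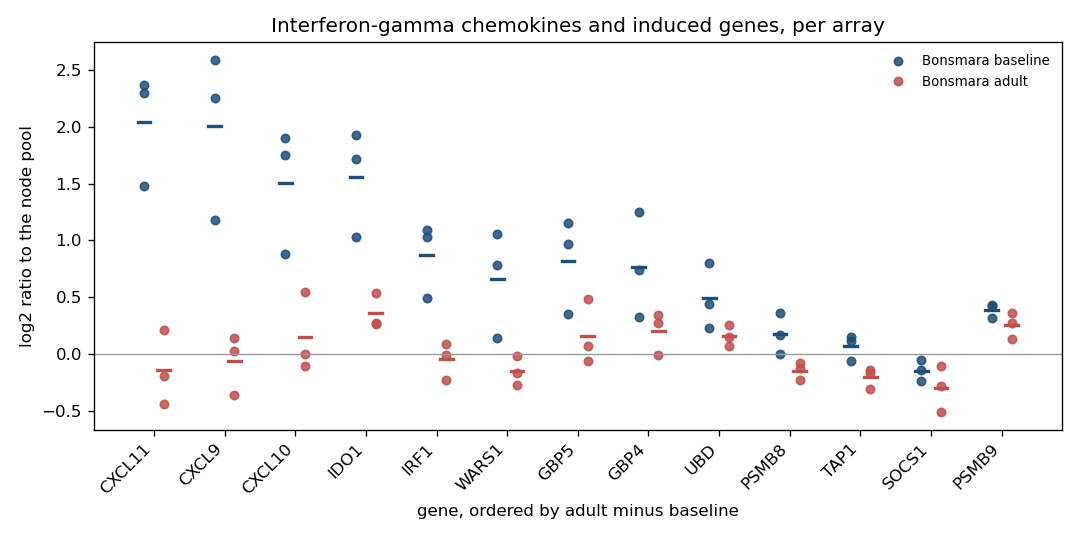
Log2 ratio to the node pool of the 13 measured genes of the interferon-gamma list, with 1 point per array and a bar at the mean of 3 arrays, ordered by the difference adult minus baseline. All 13 differences are negative, from -2.19 in CXCL11 to -0.13 in PSMB9, and the baseline replicate 3 value is the lowest of its group in 12 of them.

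IFNG itself, the interferon-gamma gene, read 0.87, 1.19 and 0.42 at baseline and 0.03, -0.08 and 0.22 with adult ticks. The groups did not overlap, but the difference of -0.77 (SE 0.19, limma adjusted p = 0.166) did not pass. Without baseline replicate 3 it was -0.98 and passed (limma adjusted p = 0.0356). IFNG did not pass with any other baseline or adult array left out (limma adjusted p = 0.165 to 0.407). The cytokine subunit gene IL27, which supports interferon-gamma production, differed by -0.54, and TBX21, the transcription factor of type 1 helper T cells, by -0.60 with overlapping arrays. Over the 18 measured genes of the type 1 T helper programme, 4 were lower at an unadjusted p under 0.05 (6.59% of all features) and 0 were higher. The count was 2 without adult replicate 2, baseline replicate 1 or baseline replicate 2. The median was only -0.0317, and it was 0.0555 without baseline replicate 2 and -0.175 without baseline replicate 3.

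Type I interferon stimulated genes had a median of -0.201 over 33 genes, 3 lower and 1 higher at an unadjusted p under 0.05 (6.59% and 4.58% of all features), and 0 past the threshold. The lower count was 2 without baseline replicate 1 or 2, 5 without adult replicate 3, 7 without baseline replicate 3 (median -0.303), and 9 with the 6 arrays fitted alone. In that last fit 4186 of all features reached this level in either direction, against 3230 in the main fit. DTX3L, a ubiquitin ligase, differed by -0.45 and IRF9, part of the type I interferon signalling complex, by -0.48, while the antiviral genes ISG15, MX2 and RSAD2 differed by -0.55, -0.66 and -0.54 with overlapping arrays (unadjusted p = 0.294, 0.131 and 0.187). The 2 receptor chains went opposite ways, IFNAR1 at 0.41 and IFNAR2 at -0.36, both with groups apart and neither past the threshold (adjusted p = 0.334 and 0.355).

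Killing-related genes were lower in part. Of 25 measured cytotoxic granule and natural killer cell genes, 8 were lower and 1 was higher at an unadjusted p under 0.05 (6.59% and 4.58% of all features), and 0 passed the threshold. The median was -0.161, but -0.057 without baseline replicate 2 and -0.256 without adult replicate 3. GNLY, whose product NK-lysin perforates microbial membranes, read 1.09, 1.56 and 0.69 at baseline and -0.33, -0.49 and -0.24 with adult ticks. No arrays overlapped and the difference was -1.47 (SE 0.29, limma adjusted p = 0.0812), with its 2 probes at -2.37 and -0.56. Without baseline replicate 3 it was -1.68 and passed (limma adjusted p = 0.0288). GNLY did not pass with any other baseline or adult array left out (limma adjusted p = 0.0744 to 0.242). The count of 8 was 4 without baseline replicate 2 and 5 without adult replicate 1, adult replicate 2 or baseline replicate 1.

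The serine proteases of cytotoxic granules gave further values of this kind. GZMB read 1.39, 1.99 and 0.98 at baseline and -0.20, 0.43 and 0.47 with adult ticks, and GZMA read 1.67, 2.01 and 0.91 against -0.29, 0.52 and 0.62. In both, every baseline node was above every adult node. The differences were -1.21 for GZMB and -1.25 for GZMA (limma adjusted p = 0.0926 and 0.23). GZMB passed without baseline replicate 3 (-1.45, limma adjusted p = 0.0356). It did not pass with any other baseline or adult array left out (limma adjusted p = 0.0961 to 0.243). GZMM and the pore-forming protein PRF1 had overlapping arrays, with differences of -0.46 and -0.16 (adjusted p = 0.7 and 0.9), so the granule genes did not all show the pattern. Several natural killer cell genes were also near level: KLRF1 stood at 0.07, NCR1 at 0.17 and the bovine killer-cell receptor gene KIR2DS1 at -0.03.

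KLRK1, which encodes the activating receptor NKG2D of natural killer and CD8 T cells, read 1.67, 1.77 and 1.32 at baseline and 0.89, 0.51 and 0.66 with adult ticks. It was above the pool on all 6 arrays and lower by 0.90 (SE 0.23, limma adjusted p = 0.198) with adult ticks. CD8A, a chain of the CD8 co-receptor, read 0.81, 1.42 and 0.64 at baseline and -0.30, 0.05 and 0.04 with adult ticks, without overlap, a difference of -1.03 (SE 0.22, adjusted p = 0.0926). The gamma delta T cell receptor gene TRGC6 differed by -1.15 and the fractalkine receptor gene CX3CR1 by -0.98, both with groups apart and adjusted p of 0.265 and 0.166. Without baseline replicate 3, CD8A, TRGC6 and CX3CR1 passed, at -1.19, -1.61 and -1.28 (limma adjusted p = 0.0432, 0.0432 and 0.0202), and without baseline replicate 2 TRGC6 and CX3CR1 were at -0.59 and -0.64. With any other of the 6 arrays left out none of them passed. The limma adjusted p then reached 0.229 in CD8A, 0.489 in TRGC6 and 0.388 in CX3CR1. The 12 measured CD8 T cell genes had a median of -0.308, with 2 lower and 0 higher at an unadjusted p under 0.05. The 9 measured gamma delta T cell genes had -0.124, with 1 lower and 0 higher at that level (6.59% and 4.58% of all features).

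Over 23 genes of the T cell receptor complex and T cell identity the median was -0.153, and 18 were lower, 3 of them at an unadjusted p under 0.05 (6.59% of all features), with 0 higher at that level. In 7 the adult arrays lay entirely below the baseline arrays (11.6% of all features). The median was -0.05 without adult replicate 2, -0.0715 without baseline replicate 2 and -0.245 without adult replicate 1. The 5 T cell markers (CD3D, CD3E, CD3G, CD2 and CD5) had differences between -0.304 and 0.0373, 0 of them at an unadjusted p under 0.05. The T cell kinase ZAP70 differed by -0.52 and the transcription factor LEF1 by -0.47, both with groups apart and neither past the threshold (limma adjusted p = 0.317 and 0.318). The part of T cell number in the lower CD8A and granzyme values was not tested.

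Cell cycle genes were lower almost throughout the list. Of 32 measured cell cycle and DNA replication genes, 31 had a negative difference, the median was -0.342, and the adult arrays lay entirely below the baseline arrays in 21, against 11.6% of all features. At an unadjusted p under 0.05, 5 were lower (6.59% of all features) and 0 higher, and 0 passed the threshold. The 5 became 2 without adult replicate 3 or baseline replicate 2 and 3 without adult replicate 2, and 18 when the 6 arrays were fitted alone. Fitted alone, 4186 of all features reached that level in either direction, against 3230 in the main fit.

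CDK1, the kinase that drives entry into mitosis, read 0.69, 0.87 and 0.54 at baseline and -0.07, -0.38 and -0.27 with adult ticks. Baseline nodes were all above the pool and adult nodes all below it, and the difference was -0.94 (SE 0.29, limma adjusted p = 0.269). CCNE1, the cyclin of entry into S phase, read 0.21, 0.35 and -0.15 against -0.51, -0.34 and -0.43, also without overlap (difference -0.56, adjusted p = 0.265). The thymidine kinase TK1 and the replication helicase subunit MCM4 differed by -0.44 and -0.51. FOXM1 was the single member with a positive difference, 0.14.

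Of 20 measured B cell and germinal centre genes, 15 had a positive difference, and 3 were higher and 1 lower at an unadjusted p under 0.05 (4.58% and 6.59% of all features). The median was 0.206, with a range of 0.13 (without adult replicate 1) to 0.336 (without adult replicate 3). BANK1, a scaffold protein of B cell receptor signalling, read -0.15, -0.54 and -0.16 at baseline and 0.58, 0.69 and 0.40 with adult ticks. The groups lay on opposite sides of the pool, and the difference was 0.84 (SE 0.19, limma adjusted p = 0.1). FCER2, the low-affinity IgE receptor CD23, read -0.94, -0.88 and -0.79 against 0.37, 0.38 and -0.08, again without overlap (difference 1.09, adjusted p = 0.318).

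CD79A, a signalling chain of the B cell receptor, read -1.08, -1.01 and -0.35 at baseline and 0.06, -0.12 and -0.39 with adult ticks, so baseline replicate 3 and adult replicate 3 overlapped. Its difference was 0.67 (adjusted p = 0.312). S1PR2, a receptor that holds B cells in the germinal centre, went the other way, from 0.87, 0.86 and 0.81 to 0.12, 0.21 and 0.01 (difference -0.73, SE 0.25, adjusted p = 0.318). The germinal centre regulator BCL6 was level at 0.05. The 3 measured B cell markers (CD79A, MS4A1 and PAX5) had array means of -0.941 to -0.339 at baseline and -0.408 to 0.00812 with adult ticks, and the part of B cell number in the higher B cell genes was not tested.

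Plasma cell and immunoglobulin genes were below the pool at baseline and nearer to it with adult ticks. The median was 0.439 over 22 genes, 20 of them higher, and in 14 the adult arrays lay entirely above the baseline arrays, against 10.9% of all features. At an unadjusted p under 0.05, 3 were higher (4.58% of all features), and 0 passed the threshold. The count was 1 without adult replicate 2 and 13 with the 6 arrays fitted alone. That fit had 4186 of all features at this level in either direction, against 3230 in the main fit. The 3 higher in the main fit were FNDC3B at 0.69, CAV1 at 0.61 and CREB3L2, and no immunoglobulin gene was among them. Whether these 3 rose in plasma cells or in other cells of the node was not tested. The transcription factor CREB3L2, linked to secretory cells, read -0.64, -0.87 and -0.81 against -0.39, -0.27 and -0.15 (difference 0.51, SE 0.23, adjusted p = 0.426). MZB1, a chaperone of antibody assembly, and the IgG constant gene listed as IgCgamma differed by 1.04 and 1.28 with large errors (SE 0.62 and 0.70, unadjusted p = 0.105 and 0.0815).

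IGHE, the IgE heavy chain gene, read -1.07, -0.91 and -2.95 at baseline and 0.02, 1.59 and 0.64 with adult ticks, its widest scatter being within the baseline group (difference 2.39, SE 1.25, limma adjusted p = 0.482). Immunoglobulin constant genes resemble each other in sequence, and how the probes share signal among them is not known. Of 28 genes of the unfolded protein response and secretory machinery, 23 were higher, 2 of them at an unadjusted p under 0.05, and 1 was lower at that level (4.58% and 6.59% of all features). Without adult replicate 1, 4 were higher at that level, without adult replicate 2, 3 were lower, and with the 6 arrays fitted alone 8 were higher. Over all features, 4186 reached that level with the 6 arrays fitted alone and 3230 in the main fit. HSP90B1, the endoplasmic reticulum chaperone that helps fold secreted and membrane proteins, read -0.87, -0.89 and -1.13 against 0.11, 0.51 and 0.58, without overlap (difference 1.36, SE 0.50, adjusted p = 0.33).

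**Figure D3:**
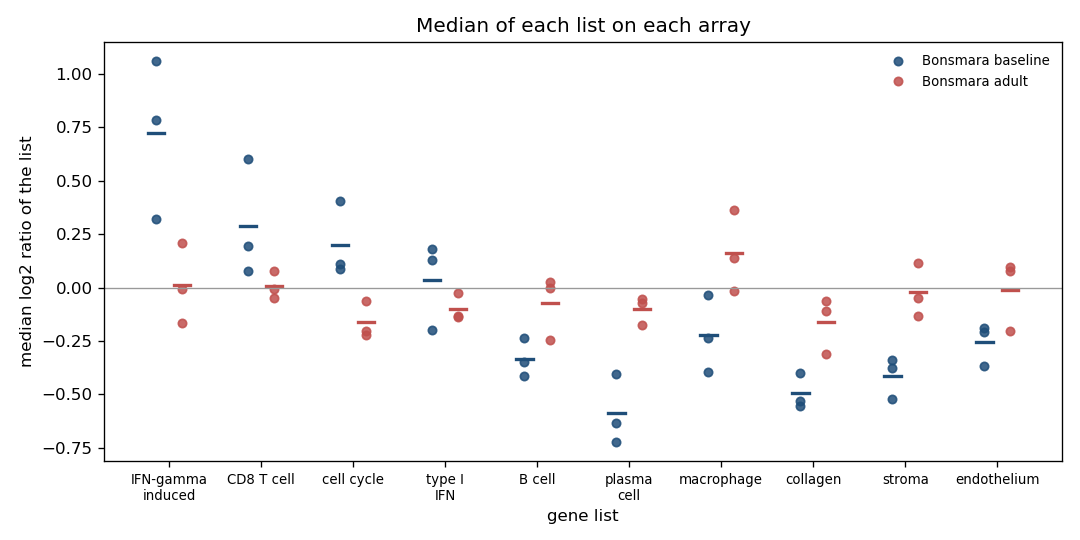
Median log2 ratio to the pool over the measured genes of 10 lists, with 1 point per array and a bar at the mean of 3 arrays. The interferon-gamma list lies at 0.32 to 1.06 on the baseline arrays and at -0.17 to 0.21 on the adult arrays, and plasma cell, collagen and stroma lists lie below the pool at baseline.

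Macrophage genes were higher by a median of 0.35 over 32 genes, 25 of them in that direction, with 6 higher and 0 lower at an unadjusted p under 0.05 (4.58% and 6.59% of all features) and 0 past the threshold. CSF1R, the receptor of the macrophage growth factor, read -0.26, -0.42 and -0.64 at baseline and -0.0038, 0.23 and 0.71 with adult ticks. The groups were apart by a small gap, and adult replicate 3 was the highest array (difference 0.75, SE 0.24, limma adjusted p = 0.277). The complement receptor VSIG4, the complement subunit gene C1QA and the lysosomal protease gene CTSB differed by 0.73, 0.59 and 0.56, all without overlap. The count of 6 was 1 without adult replicate 3, 3 without baseline replicate 2, 4 without baseline replicate 3, and 9 without adult replicate 1 or baseline replicate 1. The markers CD14, CD68 and CSF1R had array means of -0.696 to -0.202 at baseline and -0.0639 to 0.319 with adult ticks, and the part of macrophage number in these values was not tested.

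Matrix genes were higher in direction but none passed the threshold. Of 23 collagens and collagen-binding matrix genes, 22 had a positive difference with a median of 0.298, 4 at an unadjusted p under 0.05 (4.58% of all features). The count was 9 without adult replicate 1, 2 without adult replicate 2, 1 without baseline replicate 2, and 12 with the 6 arrays fitted alone. Over all features, 4186 reached that level in either direction with the 6 arrays fitted alone and 3230 in the main fit. COL3A1, the main collagen of reticular fibres, read -0.92, -1.22 and -0.97 at baseline and -0.34, 0.18 and -0.11 with adult ticks. All 3 adult nodes were above all baseline nodes, and the difference was 0.95 (SE 0.44, limma adjusted p = 0.435), with the 10 probes between 0.51 and 1.24.

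The chains of type I collagen, COL1A1 and COL1A2, differed by 0.86 and 0.80 (SE 0.47 and 0.43, adjusted p = 0.514 and 0.498), both without overlap. COL6A1 and COL6A2, of the beaded-filament collagen VI, differed by 0.47 and 0.42 with smaller errors (SE 0.17 and 0.14, adjusted p = 0.322 and 0.302). The basement membrane chains COL4A1 and COL4A2 differed by 0.55 and 0.46, whereas COL4A3, COL4A4, COL4A5 and COL4A6 lay between -0.10 and 0.07 with overlapping arrays. The cartilage collagen COL2A1 was at 0.07, COL5A3 at 0.29 and COL6A6 at 0.04, all with overlapping arrays. Leaving out 1 array put COL5A3 between 0.13 (without adult replicate 2) and 0.55 (without adult replicate 1), and COL6A6 between -0.30 (without baseline replicate 3) and 0.46 (without baseline replicate 1). Of 33 basement membrane, elastic fibre and proteoglycan genes, 5 were higher and 0 lower at an unadjusted p under 0.05 (4.58% and 6.59% of all features). That count was 1 without adult replicate 2, baseline replicate 2 or baseline replicate 3, and 3 without adult replicate 3.

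Lymph node stroma genes had a median of 0.385 over 24 genes, with 6 higher and 0 lower at an unadjusted p under 0.05 (4.58% and 6.59% of all features), and 0 past the threshold. CH25H, which makes the 25-hydroxycholesterol that stroma turns into a lymphocyte attractant, read -0.69, -0.69 and -0.57 at baseline and -0.06, -0.14 and -0.10 with adult ticks. Both groups were narrow and apart (difference 0.55, SE 0.14, limma adjusted p = 0.198). THY1, a fibroblast surface protein, differed by 0.58, and LTBR, the lymphotoxin beta receptor through which lymph nodes form and are kept up, by 0.76. The homeostatic chemokine genes CCL19, CCL21 and CXCL13 stood at -0.10, 0.27 and 0.76, with overlapping arrays in CCL19 and CCL21 and an unadjusted p of 0.0955 in CXCL13.

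Of 28 blood and lymphatic endothelial genes, 6 were higher and 0 lower at an unadjusted p under 0.05 (4.58% and 6.59% of all features), with a median of 0.278. That count was 1 without baseline replicate 2, 2 without adult replicate 2, 3 without adult replicate 3 and 9 without adult replicate 1, and the median was 0.155 without adult replicate 3. VWF, the platelet-binding glycoprotein of endothelium, read -0.62, -1.16 and -0.50 at baseline and -0.37, 0.38 and -0.36 with adult ticks. The difference was 0.64 (SE 0.23, limma adjusted p = 0.318). It was 0.40 without the high adult replicate 2 and 0.44 without the low baseline replicate 2. PROX1, the transcription factor of lymphatic identity, differed by 0.69 without overlap (adjusted p = 0.38). The markers PECAM1, CDH5 and VWF had array means of -0.789 to -0.375 at baseline and -0.228 to 0.229 with adult ticks.

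PLXNA4 and MDGA1 were the 2 members of the semaphorin, plexin and axon guidance list past the threshold, among 30 measured genes with a median of 0.125. At an unadjusted p under 0.05, 6 of the 30 were higher and 1 was lower (4.58% and 6.59% of all features). PLXNA4 and MDGA1 were known from earlier results when the list was drawn up, so its counts are no independent evidence. EFNB2, a membrane ligand of Eph receptors with a role in vessels, read -0.61, -0.71 and -0.55 against -0.10, 0.23 and 0.02, without overlap (difference 0.67, SE 0.20, limma adjusted p = 0.265). SEMA3C, a secreted semaphorin, was the one lower, at -0.51 with overlapping arrays. It was at -0.79 and passed without baseline replicate 2 (limma adjusted p = 0.013), and at -0.34 without baseline replicate 1. With any other of the 6 arrays than baseline replicate 2 left out it did not pass (limma adjusted p = 0.376 to 0.563).

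**Figure D4:**
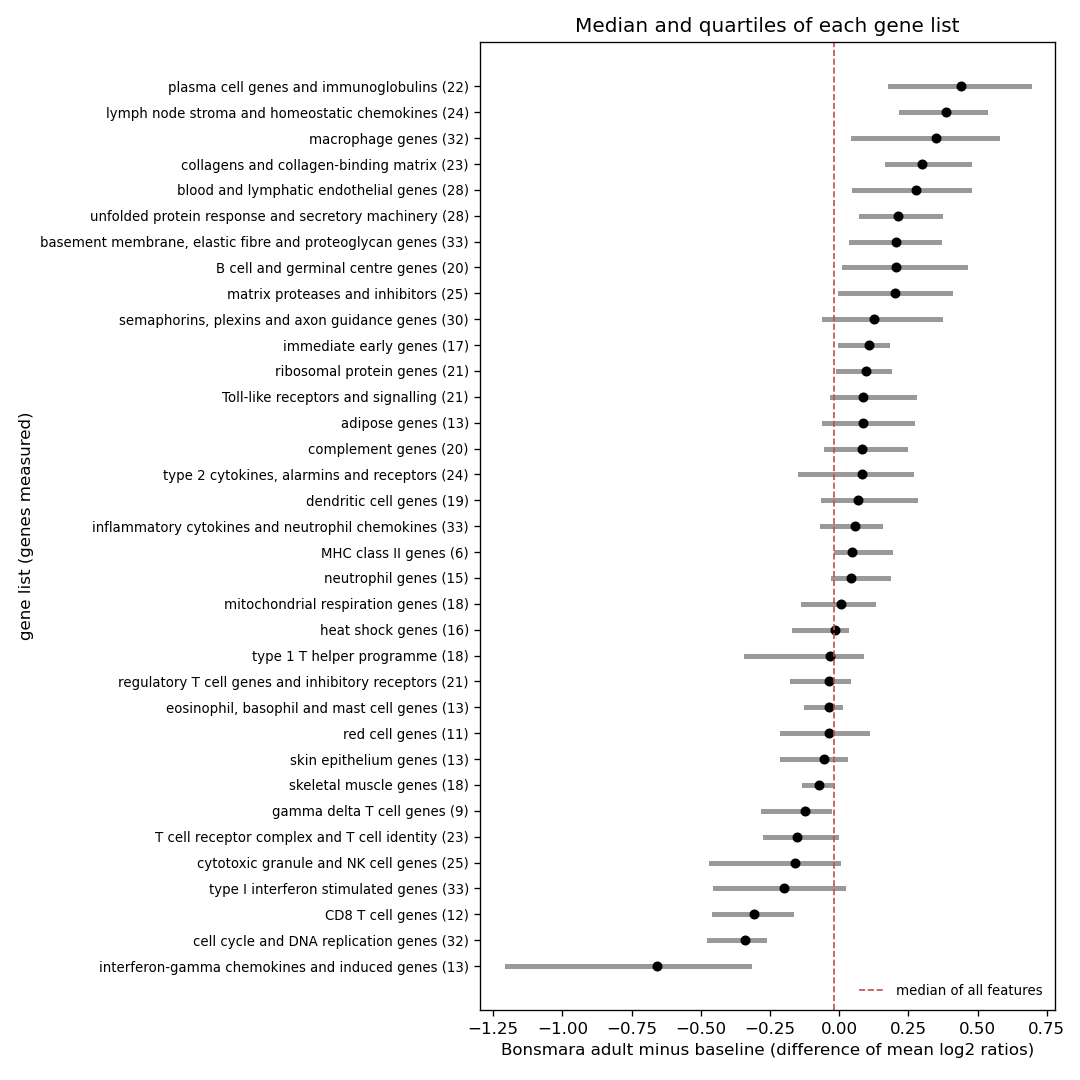
Median difference of log2 ratios, adult minus baseline, for each of the 35 gene lists, with a grey bar from the lower to the upper quartile of its measured genes and a dashed line at the median of all features, -0.0185. The interferon-gamma list is lowest at -0.66 and the plasma cell list highest at 0.439; the medians are descriptions with no test.

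Other lists lay nearer to the median of all features. Inflammatory cytokines and neutrophil chemokines had a median of 0.055 over 33 genes, with 2 higher and 1 lower at an unadjusted p under 0.05 (4.58% and 6.59% of all features), among them the chemokine genes CCL20 at 0.63 and CCL4 at -0.58. Type 2 cytokines, alarmins and their receptors had a median of 0.0804 over 24 genes. The alarmin IL25 differed by 0.37 with groups apart (limma adjusted p = 0.279). The eosinophil growth factor gene IL5 stood at 2.49, 0.21 and -0.30 at baseline and within 0.04 of the pool on the adult arrays, so its difference of -0.80 came from baseline replicate 1. Complement genes were at 0.0836 over 20 genes, with C3, the central component, lower by 0.62 (adjusted p = 0.277) and without overlap. MHC class II genes were at 0.0446 over 6 genes, neutrophil genes at 0.0426 over 15, and muscle, skin, red cell and adipose genes between -0.0749 and 0.0849.

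Among settled gene symbols with groups apart and an unadjusted p under 0.01, the 15 largest differences in each direction held further genes that did not pass the threshold. SYT12, a synaptotagmin, read -0.39, -1.09 and -1.14 against 1.36, 1.10 and 0.07, the widest difference upward at 1.71 (SE 0.57, limma adjusted p = 0.302). The mitophagy receptor BNIP3L differed by 0.94 (adjusted p = 0.0926), the pericyte gene RGS5 by 0.95, the transcription factor TCF4 by 0.82, and the vasodilator peptide gene ADM by 0.82. The chemokine CCL14 was at 0.79, the secreted protein gene CRISPLD2 at 0.76, the sorting nexin SNX24 at 0.85 and the ribosome maturation factor TSR2 at 0.83.

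Downward, PLAC8A read 1.58, 1.89 and 0.86 at baseline and -0.50, -0.27 and 0.22 with adult ticks, all 4 probes between -1.79 and -1.48 (difference -1.63, SE 0.39, limma adjusted p = 0.162). Its baseline replicate 3 was the lowest of the group, as in CXCL9, CXCL11, GZMA and GZMB. Some large differences rested on 1 array each. PANX3 stood at -2.35 on adult replicate 2 and at -0.18 on the other adult arrays, OVCH2 at -2.42 on adult replicate 3, and FATE1 at -2.53 on adult replicate 1. ZBTB26 stood at -1.77 on baseline replicate 3, and a low baseline array raises the difference of adult minus baseline instead of lowering it.

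The Bonsmara difference was set against the adult minus baseline differences of Brahman and Holstein-Friesian nodes, which share no array with it. In limma's test of the difference between responses, 0 features passed for either breed. Against Brahman the smallest adjusted p was 0.559, with 2078 features (7.18%) at an unadjusted p under 0.05, and against Holstein-Friesian it was 0.144, with 2074 features (7.17%). No difference between breeds can therefore be named past the threshold for any gene.

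CXCL11 differed by -2.19 in Bonsmara, by -0.76 in Brahman and by 0.65 in Holstein-Friesian nodes (SE 0.36 in each). The response of Bonsmara minus that of Holstein-Friesian was -2.84 (SE 0.51, 95% interval -3.90 to -1.77, limma adjusted p = 0.144, the smallest in that test), and minus that of Brahman it was -1.43 (95% interval -2.49 to -0.36, adjusted p = 0.63). CXCL9 differed by -2.07, -1.50 and -0.05 in the same order (SE 0.47 in each), and IDO1 by -1.20, -0.94 and 0.33 (SE 0.38 in each). For CXCL9, the response of Bonsmara minus that of Brahman was -0.57 (95% interval -1.95 to 0.81), so a gap in either direction lies within the interval. The interferon-gamma list had medians of -0.66, -0.295 and 0.0812 in the 3 breeds. At an unadjusted p under 0.05, 2 of its 13 genes differed between Bonsmara and Brahman (7.18% of all features). Between Bonsmara and Holstein-Friesian 7 did (7.17% of all features).

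AK5 differed by 0.03 in both Brahman and Holstein-Friesian nodes, and the response of Bonsmara minus that of either breed was -0.77 (95% interval -1.14 to -0.40, limma adjusted p = 0.559 and 0.33). MDGA1 was at -0.09 and 0.13 in those breeds (response of Bonsmara minus theirs 0.94 and 0.72, SE 0.22 in each, adjusted p = 0.559 and 0.514). PLXNA4, by contrast, was higher by 0.66 in Brahman nodes (adjusted p = 0.115) and by 0.13 in Holstein-Friesian nodes. Its response in Bonsmara minus that in Brahman was 0.10 (95% interval -0.25 to 0.44).

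**Figure D5:**
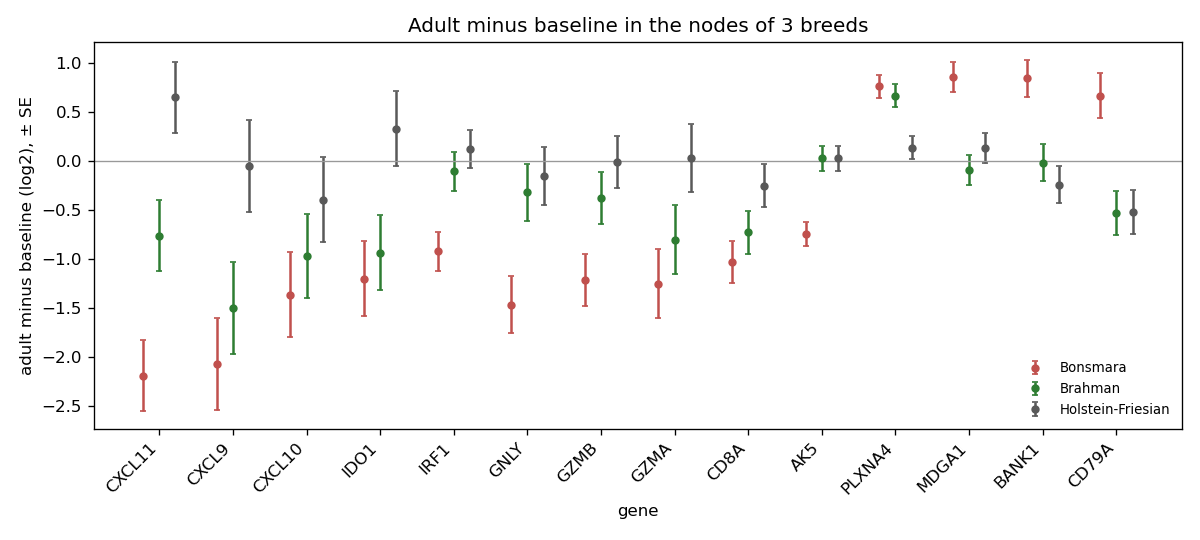
Adult minus baseline difference of log2 ratios, with its SE from the limma fit, for 14 genes in Bonsmara, Brahman and Holstein-Friesian nodes (3 arrays in each group). CXCL11 lies at -2.19, -0.76 and 0.65 in that order, PLXNA4 is at 0.76 and 0.66 in Bonsmara and Brahman, and CD79A is at 0.67, -0.53 and -0.52.

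GNLY, GZMB and IRF1 had small differences in the other breeds: GNLY was at -0.32 and -0.15, GZMB at -0.38 and -0.0074, and IRF1 at -0.11 and 0.12 in Brahman and Holstein-Friesian (SE 0.29, 0.27 and 0.20). B cell genes were also unequal in sign, with list medians of 0.206 in Bonsmara, -0.335 in Brahman and -0.226 in Holstein-Friesian, and with CD79A at 0.67, -0.53 and -0.52. The response of CD79A in Bonsmara exceeded that in Brahman by 1.19 and that in Holstein-Friesian by 1.18 (95% intervals 0.53 to 1.86 and 0.52 to 1.85, limma adjusted p = 0.587 and 0.495). Other lists moved in the same direction in Bonsmara and Brahman. In Bonsmara, Brahman and Holstein-Friesian, cell cycle genes had medians of -0.342, -0.426 and -0.105. Type I interferon stimulated genes had -0.201, -0.586 and 0.177 in that order. Collagens had 0.298, 0.54 and 0.257, and lymph node stroma genes 0.385, 0.216 and 0.0472. In the test against Brahman the genes of smallest adjusted p further included CIAO1 at -0.66, FCRL4 at 1.07, CAMK2A at 0.92 and PUS10 at 0.87 (SE 0.13, 0.23, 0.22 and 0.21, adjusted p = 0.559 in each). In the test against Holstein-Friesian they included PDIA3 at -1.19, WASF1 at -0.89, TIFA at -1.04 and UNC93B1 at 1.04 (SE 0.24, 0.19, 0.23 and 0.23, adjusted p = 0.295, 0.33, 0.33 and 0.33). Inflammatory cytokines and neutrophil chemokines had a median of 0.403 in Holstein-Friesian nodes against 0.055 in Bonsmara nodes. At an unadjusted p under 0.05, 14 of these 33 genes differed between the 2 responses (7.17% of all features), and 0 passed the threshold.

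The adult stage was also tested directly against the larval stage of the same breed, since both share the baseline arrays. In that test 14 features passed (0.0484%), 8 higher and 6 lower with adult ticks. COL4A2 stood at 0.38, 0.90 and 0.94 on the larva arrays and at -0.75, -0.33 and -0.66 on the adult arrays, and was lower by 1.32 (SE 0.22, limma adjusted p = 0.0375). The laminin chain LAMB2 fell by 0.59, the complement protease factor B gene CFB by 1.15 and the endoplasmic reticulum disulfide isomerase PDIA3 by 1.12. EOMES, a transcription factor of CD8 T cells and natural killer cells, rose by 1.23 (larva arrays -0.44, -0.37 and -1.14, adult arrays 0.58, 0.56 and 0.59, adjusted p = 0.049). ARGLU1, NABP1 and POLI rose by 0.93, 0.66 and 0.73. The count of 14 was 0 to 3 with any 1 of these 6 arrays left out, and 0 with them fitted alone.

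CXCL11, AK5, PLXNA4 and MDGA1, which changed between baseline and adult feeding, did not pass in this test. CXCL11 was at -0.67, -0.40 and -1.29 on the larva arrays, so the adult stage was higher by 0.65 (limma adjusted p = 0.617), and CXCL9 was at -0.82, -0.92 and -2.73 (adult higher by 1.42, adjusted p = 0.313), with larva replicate 3 the lowest in both. AK5, MDGA1, PLXNA4 and GNLY differed between the stages by 0.07, 0.03, 0.18 and 0.06 (adjusted p = 0.989, 1.0, 0.707 and 1.0). COL1A1 was higher with larvae, at 0.08, 0.98 and 1.92, than with adult ticks, at -1.04, -0.17 and -0.83, a difference of -1.68 that did not pass (SE 0.47, adjusted p = 0.221). Against the same baseline arrays, the larva arrays differed past the threshold in 322 of 28927 features. The interferon-gamma list had medians of -0.982 with larvae and -0.66 with adult ticks. In that order, cytotoxic genes had -0.958 and -0.161, collagens 0.622 and 0.298, and plasma cell genes 0.793 and 0.439. Macrophage genes had -0.049 and 0.35, and cell cycle genes -0.139 and -0.342.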

How the data were processed

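RNA from cattle lymph node biopsies was measured on 27 arrays of 2 colours, 3 for each of 9 groups of breed and tick stage. The authors deposited 1 log2 ratio per probe and array, taken here as Cy5 (sample) over Cy3 (pool). The submitters' processing notes name limma. Its version, how background was corrected, how arrays were normalized and any scan batches were not given in the sources used. With no scanner intensities used, how far a probe lay above background is unknown. No value was missing.

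Of 45220 probes, 30788 carried 1 gene symbol and 14432 none. Symbols were updated through a RefSeq gene table (ARS-UCD2.0), by accession for 20526 probes, by unchanged symbol for 9844 and by synonym for 369, and 49 kept a symbol that was not matched. Probes of a gene were averaged, which gave 28927 features. limma 3.58.1 in R 4.3.3 was fitted to all 27 arrays with 1 mean per group (18 residual degrees of freedom), two-sided, with Benjamini-Hochberg adjustment over all features and a threshold of adjusted p under 0.05. The procedure was tested on simulated data with independent normal noise and the same spread in every group. Unequal spread between groups and correlation between genes were not covered by it. The p-values measure the spread between samples that the labels call biological replicates, pooled over the 9 groups.

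Named genes were those past the threshold, the 15 largest differences in each direction with groups apart and an unadjusted p under 0.01, members of the 35 lists with the smallest p together with fixed families, and the smallest adjusted p of each test between responses. The samples, lists and this rule were chosen with earlier results of these data known. Alternatives changed the arrays fitted, their scale, weights and normalization, the averaging of probes, the features tested, the prior, the replicate block and the arrays left out.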

Additional observations from a re-analysis of the deposited data

Results flagged for a closer look

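The response of Bonsmara nodes to adult ticks differed from their response to larvae in 14 features, by limma's direct test of the adult arrays against the larva arrays. The settled symbols among them were PDIA3 at -1.12, LAMB2 at -0.59, COL4A2 at -1.32 and CFB at -1.15, lower with adult ticks, and ARGLU1 at 0.93, NABP1 at 0.66, EOMES at 1.23 and POLI at 0.73, higher with adult ticks. Their adjusted p ran from 0.0309 for PDIA3 to 0.049 for EOMES, POLI and CFB. The values are differences of log2 ratios, and no explanation was tested.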

How the results depend on the processing

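With 3 arrays in a group and no signal over background, the counts of features past the threshold depended on the setting. Settings that change only the estimate of spread, the features tested or arrays of other groups leave a difference as it is. Directions mostly held in the settings that can move a difference. The cause of each move in these counts was not tested. Fits to the compared arrays alone have fewer residual degrees of freedom and their own estimate of spread. For adult minus baseline, the 9 features became 0 with the compared arrays alone, 0 with arrays scaled to the same interquartile range, 5 with quantile normalization (2 higher, 3 lower), 137 with array weights, and 1 to 60 with any 1 of the 6 arrays left out: 1 without adult replicate 1 or 2, 14 without adult replicate 3, and 60, 40 and 49 without baseline replicates 1, 2 and 3. The 9 features were all among the 13 found with the median of probes, the 10 with a trended robust prior, the 137 with array weights and the 12 found without larva replicate 3 of Bonsmara and of Holstein-Friesian, the latter the lone array with a mean own-group correlation below 0 (-0.0854). For adult minus larva, the 14 became 0 with the compared arrays alone or a trended robust prior, 117 with scaled arrays, 418 with quantile normalization, 1291 with array weights, 7 without moderation of the variance, 27 with every probe on its own, 3 without those 2 larva arrays, and 0 to 3 with any 1 of the 6 arrays left out. Quantile normalization moved its split from 8 higher and 6 lower to 276 higher and 142 lower. The count for the response of Bonsmara minus that of Brahman was 0, 1 with array weights, and 0 to 33 with 1 array left out (33 without Brahman baseline replicate 3, 14 without Brahman baseline replicate 1). That for Bonsmara minus Holstein-Friesian was 0, 11 with array weights, and 0 to 16 with 1 array left out (16 without Holstein-Friesian adult replicate 2).

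The labels do not say what a replicate number marks, and adult and baseline arrays of 1 number did not deviate together (r of deviations -0.0015, -0.0019 and -0.0238), so the numbers were not taken as pairs. With the replicate block, 5 features passed for adult minus baseline, 4 of them among the 9, and 7 for adult minus larva. With the replicate block and the compared arrays alone, 0 passed in both. Of 165 named genes, 9 that did not pass did so with 1 array left out: CXCL9, GNLY, GZMB, TRGC6, CD8A, CX3CR1, IRF1 and IFNG without baseline replicate 3, and SEMA3C without baseline replicate 2. In 15 the sign changed in at least 1 setting. IL5 went to 0.0397 without baseline replicate 1 (-1.35 without baseline replicate 3), and the others were PRF1, COL2A1, COL4A4, COL4A5, COL4A6, COL6A6, EOMES, SOX4, BOLA-DQA2, BOLA-DYB, HSPA1L, DSC3, ALAS2 and AHSP. With scaled arrays, members at an unadjusted p under 0.05 went from 8 to 4 lower in the cytotoxic list, from 3 to 0 lower in the T cell list, from 3 to 0 higher in the plasma cell list, from 4 to 1 and from 5 to 1 higher in the collagen and basement membrane lists, and from 2 to 1 higher in the unfolded protein response list. Over all features the count at that level, in either direction, went from 3230 to 2214. Of the 35 list medians, 28 kept their sign in every setting, and 7 near 0 changed it in at least 1: type 1 T helper, MHC class II, regulatory T cell, complement, heat shock, red cell and mitochondrial genes. The settings that cannot move a difference are among those counted.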
